A study of Mus musculus with 4 samples.

Results

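Eya1-occupied intervals that lie inside introns, far from any promoter, were examined in the embryonic mouse kidney. The peak lists of 2 Eya1 chromatin immunoprecipitation (ChIP-seq) replicates were merged, with overlapping or touching peaks joined, into 5482 intervals on the nuclear chromosomes. An interval was kept when it was more than 3 kb from every transcription start site (TSS) of GENCODE release M21, overlapped a gene body and touched no exon. This left 241 intronic distal intervals, 4.40% of all merged intervals (95% CI 3.87 to 4.97%, exact Clopper-Pearson, counting error only). Another 259 distal intervals were intergenic, and 4833 intervals were within 1 kb of a TSS. Those just inside the distance rule were 3054, 3107 and 3195 bp from a TSS, and the nearest ones left out were 2926, 2919 and 2829 bp away.

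The chromatin came from kidneys of E13.5 embryos that carried an Eya1 knockin allele with HA and FLAG tags, and 80 kidneys were pooled in each assay. Tagged Eya1 was recovered with anti-FLAG M2 beads. The series comprised 2 Eya1 ChIP replicates, an input control and an IgG control, and the controls were not analysed here. Whole kidneys hold nephron progenitors, ureteric bud, stroma and vessels, so a peak cannot be assigned to a cell type. No count, height or P value accompanies a peak, so the depth behind each one is unknown and the measurements are presence, position, width and sequence.

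Eya1 is a transcriptional coactivator and phosphatase that does not bind DNA by itself and reaches the genome through DNA-binding partners. REST, also called NRSF, is a zinc finger repressor that keeps neuronal genes silent in tissues outside the nervous system and recruits corepressor complexes. It recognises RE1, an element made of a left arm and a right arm separated by a short spacer. Many RE1 elements are located in introns of neuronal genes. RE1 was searched here as a 17-bp consensus that holds the left arm, the spacer and the start of the right arm.

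The elements below are shown because RE1 was the sequence that set the intronic intervals apart from their surroundings. Capitals mark the 17 bp that were searched, and coordinates give those bases on mm10. Lower-case letters are the adjoining genome sequence. The right arm, searched by itself with 10 letters, runs past the capitals into the lower-case letters after them. The first group has elements with 0 mismatches to the consensus, in intervals present in both lists except that of Dcx, which was in replicate 1 alone, and the outer pair of Srrm4, which were in replicate 2 alone.
Cacna1a intron 1, minus strand, chr8:84454747-84454763: gacaTTCAGCACCATGGCCAGcagc
Hcn4 intron 1, minus strand, chr9:58841863-58841879: tgtgTTCAGCACCATGGACAGtgtc
Syt2 intron 2, plus strand, chr1:134665005-134665021: gataTTCAGCACCACGGACAGcacc
Slc8a2 intron 4, plus strand, chr7:16147825-16147841: gtctTTCAGCACCGCGGACAGcgcc
Nova2 intron 3, minus strand, chr7:18951599-18951615: cctcTTCAGCACCAAGGACAGcagc
Srrm4 intron 1, minus strand, chr5:116518255-116518271: ctggTTCAGCACCGCGGACAGtggc
Srrm4 intron 1, plus strand, chr5:116545922-116545938: ggttTTCAGAACCATGGACAGcgcc
Srrm4 intron 1, plus strand, chr5:116554097-116554113: aactTTCAGCACCATGGAGAGcctc
Dcx intron 3, plus strand, chrX:143904875-143904891: cacaTTCAGCACCATGGACAGcaca

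The elements of the second group depart from the consensus and show where departures occurred. The Camk2b element has 1 mismatch, at position 9 counted from the 5′ end of the capitals, and those of Slit1 and Kcnip1 have 1 at position 6. Nrxn2 has mismatches at positions 1 and 5.
Camk2b intron 2, plus strand, chr11:6016533-6016549: acttTTCAGCACTAAGGACAGcagc
Slit1 intron 4, minus strand, chr19:41661179-41661195: gagaTTCAGGACCAGGGACAGctct
Kcnip1 intron 1, plus strand, chr11:33680276-33680292: catgTTCAGTACCACGGACAGcacc
Nrxn2 intron 17, minus strand, chr19:6502790-6502806: cacgCTCATCACCATGGACAGcgcc

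Most intronic intervals were listed in replicate 2 only. Of the 241, 167 were in replicate 2 alone (69.3%), 66 in both lists (27.4%) and 8 in replicate 1 alone (3.32%). Taken list by list, 74 replicate 1 peaks (1.73% of that list) and 238 replicate 2 peaks (5.72%) met the rule, a mean of 156 ± 116 peaks (SD, n = 2). Merging placed 4 of the replicate 2 peaks in another class, 3 of them exonic. The share in replicate 2 alone was 65.6% among intergenic intervals and did not differ detectably from the intronic one (difference 3.66 percentage points, Fisher's exact test, two-sided, p = 0.392, adjusted p = 0.686 over 7 comparisons). These tests run over the intervals of 2 libraries. Intervals are not replicates of the tissue, so the p values describe these lists.

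The lists also differed in peak width at the same places. In the 66 intervals of both lists, the median width was 441 bp for the replicate 1 peak (range 194 to 1706 bp) and 194 bp for the replicate 2 peak (range 117 to 947 bp). The replicate 2 peak lay wholly within the replicate 1 peak in 61 of them. Intervals of replicate 2 alone were narrower still, with a median of 148 bp (range 117 to 383 bp). At Hcn4, the pacemaker channel gene, the peak spanned 598 bp in replicate 1 and 180 bp in replicate 2. At Syt2, which encodes a calcium sensor of synaptic vesicles, the widths were 326 and 172 bp. The widest interval was in intron 40 of Myo18b, an unconventional myosin gene, where the replicate 1 peak spanned 1706 bp against 282 bp for the replicate 2 peak.

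To ask which recognition sequence lay at the intronic intervals, a 200-bp window was centred on the narrowest listed peak of each. RE1 with at most 2 mismatches was found in 190 of 241 windows (78.8%, 95% CI 73.1 to 83.8%), against 13.2% of the windows of all merged intervals. Windows 1 kb to either side of the intronic intervals held it in 9 of 482 (1.87%), close to the 1.7% of such windows around all merged intervals. The intergenic distal class had RE1 in 199 of 259 intervals (76.8%, 95% CI 71.2 to 81.8%). The difference of 2.00 percentage points was within the counting error (Fisher's exact test, two-sided, p = 0.667, adjusted p = 0.778). In replicate 1 peaks alone, however, the shares were 63.5% and 44.9% (difference 18.6 points, Fisher's exact test, p = 0.0191, adjusted p = 0.0287). That adjustment covers only the comparisons possible within 1 list, fewer than the 7 of the main set, so it is less strict. In replicate 2 peaks alone the difference was -0.960 points. The windows of promoter intervals held RE1 in 253 of 4833 cases (5.23%, 95% CI 4.62 to 5.90%), which was 73.6 points below the intronic share (Fisher's exact test, two-sided, adjusted p = 9.88e-169). Promoter intervals were wider, with a median of 986 bp against 165 bp, so the window covered less of them. Over whole intervals RE1 was found in 669 of 4833 promoter intervals (13.8%) against 80.1% of intronic ones, a difference of 66.2 points.

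**Figure D1:**
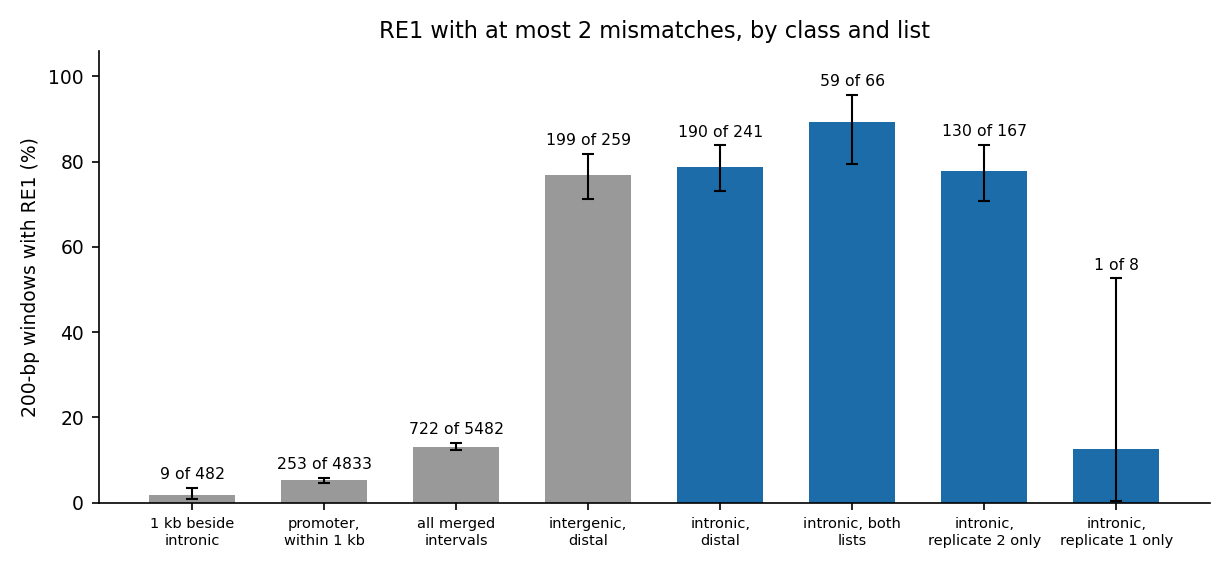
Share of 200-bp windows with RE1 (bars, %; lines, exact 95% confidence intervals; counts above the bars). Blue bars are the intronic distal intervals, together and by list, and grey bars are other classes and the windows 1 kb beside the intronic intervals; the intronic and intergenic bars stand near 80% and the promoter bar at 5.23%.

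The presence of RE1 varied with the list. It was found in 59 of 66 intervals in both lists (89.4%, 95% CI 79.4 to 95.6%) and in 130 of 167 intervals in replicate 2 alone (77.8%, 95% CI 70.8 to 83.9%). This difference of -11.5 percentage points did not pass after adjustment (Fisher's exact test, two-sided, p = 0.043, adjusted p = 0.1). It passed when the whole interval was searched (78.4% against 92.4%, Fisher's exact test, adjusted p = 0.0289), where the intervals of both lists are also the longer ones, and turned to 8.15 points in the other direction when windows were placed on the midpoint of the merged interval. Of the 8 intervals in replicate 1 alone, only that in intron 3 of Dcx, which encodes the microtubule-binding protein doublecortin, held RE1 (12.5%, 95% CI 0.316 to 52.7%; exact Fisher's test against replicate 2 alone, two-sided, adjusted p = 0.000981). With at most 1 mismatch allowed this difference did not pass (46.2 points, exact Fisher's test, adjusted p = 0.0767). The other 7 were in Tmem267, with 3 intervals, and in Grk5, Bcar3, Pcnx2 and AC174800.1.

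Where RE1 was present, its position within the peak was measured. The distance from the midpoint of the peak to the centre of the element had a median of 10.5 bp in 189 replicate 2 peaks, and 84.1% were within 25 bp. In 60 replicate 1 peaks the median was 45.5 bp, and 31.7% were within 25 bp. The search window was placed on the narrowest peak, nearly always that of replicate 2 where both lists had one, which limits its distances more than those of replicate 1, so part of this contrast is fixed by the window. At Cacna1a, which encodes the pore of the P/Q-type calcium channel, the element of intron 1 was 60.0 bp from the replicate 1 midpoint and 17.5 bp from that of replicate 2. In intron 3 of the same gene the distances were 117.0 and 7.5 bp. In the wider replicate 1 peaks the element was thus further from the midpoint in both introns. Of the 241 intervals, 20 held more than 1 RE1. Both wide intervals of Camta1, a calmodulin-binding transcription activator gene, held the most, with 7 in the 1562-bp interval of intron 6 and 11 in the 1508-bp interval of intron 3.

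**Figure D2:**
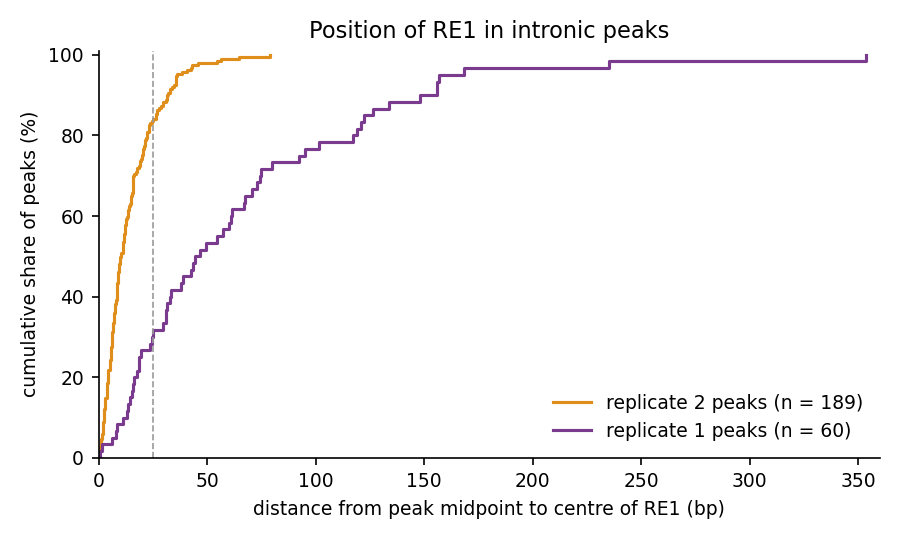
Cumulative share of intronic peaks (%) by distance from the peak midpoint to the centre of RE1 (bp), for replicate 2 (orange, n = 189) and replicate 1 (purple, n = 60). At 25 bp (dashed line) the curves stand at 84.1% and 31.7%, and the search window bounds the replicate 2 distances.

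The search admitted elements with up to 2 mismatches. Of the 190 found, 63 had 0 mismatches (33.2%), 79 had 1 and 48 had 2. Among the intergenic elements, 66 of 199 (33.2%) had 0 mismatches, a difference of -0.00793 percentage points (Fisher's exact test, two-sided, adjusted p = 1). Exact elements made up 21 of 59 in both lists (35.6%) and 41 of 130 in replicate 2 alone (31.5%), which was not a detectable difference (4.05 points, adjusted p = 0.778). The width of the peak showed no order by mismatches, as replicate 2 peaks with 0, 1 and 2 mismatches had medians of 156, 151 and 158 bp.

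Departures were concentrated at a few positions of the left arm. Position 1 was mismatched in 33.7% of intronic elements, position 6 in 26.3% and position 2 in 12.1%. Positions 8 and 13 held the same base in all 190 elements. In the 253 promoter elements the profile differed, with position 16 mismatched in 15.4% against 0.526% in introns and position 6 in 11.1%. Promoter elements also more often had 2 mismatches, 49.0% against 25.3%, and no test of these profiles was made. The search allows any 2 mismatches, so matches by chance enter every class, and the flanking share of 1.87% is their rate where no peak was centred. Just after the element, positions 19 and 20 were less uniform than 18 and 21, whose most frequent base made up 69.5% and 71.6%.

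**Figure D3:**
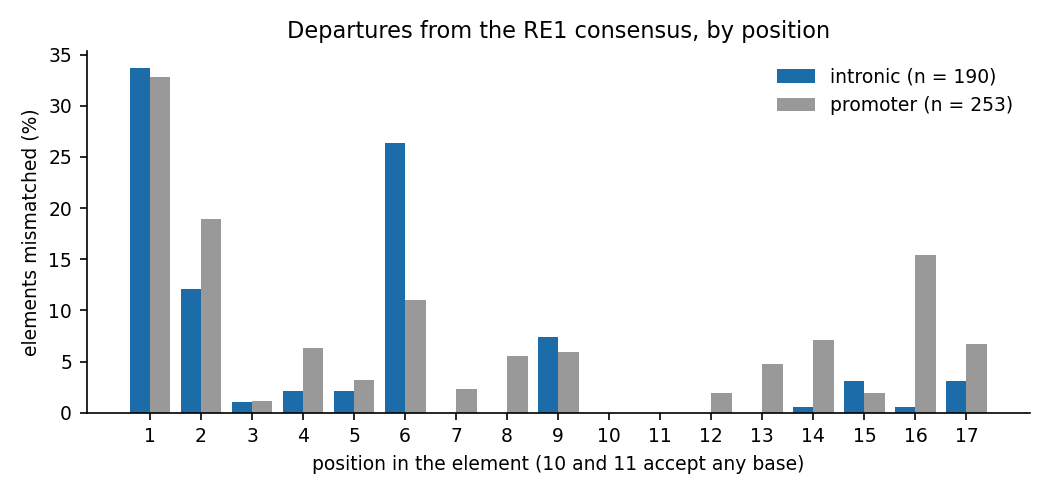
Share of RE1 elements that depart from the consensus (%) at each of the 17 positions, in intronic (blue, n = 190) and promoter (grey, n = 253) intervals. Intronic departures stand at positions 1, 6 and 2, while promoter elements also depart at position 16 (15.4%).

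The element showed a modest lean towards the strand of the host gene. It was on the host strand in 109 of 186 intervals (58.6%, 95% CI 51.2 to 65.8%), and in 102 of 165 with a protein-coding host (61.8%, 95% CI 53.9 to 69.3%). In replicate 1 peaks alone the share was 50.0% of 46, so the lean was not seen in that list. Both orientations occurred within single introns, as in Srrm4, where 1 element was on the host strand and the others were opposite.

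A panel of 16 motifs was searched in the same windows on both strands. Apart from RE1, only its arms were enriched, taken as a share over 3% and over 3 times that of the flanks. The left arm, TTCAGCACC, was found in 27.4% of intronic windows against 0.207% of flanks and 5.24% of all merged windows, and it overlaps the full element. The right arm, with at most 1 mismatch, was found in 42.7% against 0.830% of flanks and 12.1% of all merged windows. The sine oculis homeobox motif, TCANGTTNC, bound by the homeodomain partners of Eya1, was in 3 of 241 windows (1.24%, 95% CI 0.257 to 3.59%), against 3.73% of flanks and 1.26% of all merged windows. AP-1, TGANTCA, was in 5.39% against 7.88% of flanks and 2.1% of all. The promoter motifs ETS (CCGGAAGT) and YY1 (CAAGATGGC), and the motifs of CTCF (searched as a core of 12 letters) and RFX (GTTGCCATG), had 0 matches in 241 windows, which allows a share of up to 1.52% (upper 95% bound). In that order, their shares were 0%, 0.830%, 0.207% and 0.415% of flanks, and 1.37%, 1.02%, 0.128% and 0.274% of all merged windows. All of these lie below the bound, so the counts of 0 do not set the intronic windows apart.

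The 51 intronic intervals without RE1 were then searched for its arms, each with at most 1 mismatch. Both arms were present in 9, the right arm alone in 16, the left arm alone in 6 and neither in 20. Among the 482 flanking windows, 0 held both arms, 4 the right arm alone and 25 the left arm alone. The composition differed by list: all 7 of replicate 1 alone held neither arm, whereas 10 of the 37 of replicate 2 alone held neither. Those with an arm included intervals of Kcnc2, which encodes a voltage-gated potassium channel, Kif5a, a neuronal kinesin gene, Crmp1, which acts in semaphorin signalling, and Grik4, a kainate receptor subunit gene, each with the right arm alone. Neither arm was found at Unc5a, a netrin receptor gene, or at Ptprt, a receptor phosphatase gene, although both intervals were in both lists. Searching whole intervals added RE1 outside the window in 3 cases, at Unc5a, Adcy5 and Lncppara, for 193 of 241 (80.1%).

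In 6 of the 51 the arms were in order on 1 strand with 8 or 9 bases between them, a wider spacing than in the full element, and the same spacing was found in 7 of 60 intergenic intervals without RE1 and in 0 of 482 flanks. All 6 were in replicate 2 alone, and 5 are shown, with capitals marking the arms. In Rbfox3 the arms adjoined with 0 bases between them. This spacing was searched for after the data had been seen.
Gm12239 intron 1, minus strand, chr11:55810906-55810932: TTCAGTACCacatggctGGACAGCACC
Myo18b intron 21, plus strand, chr5:112824556-112824582: TTCAGCACCgcaagtgtGGACAGCTCC
Rimbp2 intron 1, minus strand, chr5:128917435-128917462: TTCAGCACTggggcggatGGACAGCTCC
Fgfr2 intron 2, minus strand, chr7:131960735-131960761: ATCAGCACCacgggggtGGACAGCTCC
Brsk2 intron 1, minus strand, chr7:141959327-141959353: TTCAGCACAgtgttgctGGACAGCTCC
Rbfox3 intron 2, minus strand, chr11:118685621-118685639: TTCAGCACCGGACAGCTCC

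The intervals were spread along their host genes. The median distance to the nearest TSS of any gene was 18439 bp (range 3054 to 227730 bp), with 71 intervals within 10 kb and 39 beyond 50 kb. The farthest was the interval in intron 3 of Camta1, followed by that in intron 5 of Cdh13, which encodes T-cadherin, at 199439 bp, and that in intron 3 of Tmem132d at 168477 bp. Host introns were long, with a median of 45546 bp. In protein-coding hosts, 75 of 203 intervals were in the first intron of the host transcript (36.9%, 95% CI 30.3 to 44.0%). With the preferred transcript of each host only, the count was 65 of 186 (34.9%, 95% CI 28.1 to 42.3%), against 24.4% of the eligible bases in introns of preferred transcripts. Eligible bases are those in introns, over 3 kb from every TSS and outside every exon. The last intron held 10 of 199. RE1 was found in 72 of 95 intervals in the first intron (75.8%) and in 118 of 146 in later introns (80.8%). Only 24 intervals lay within 1 kb of an exon of the host transcript.

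The intervals fell in 192 host genes, of which 158 were protein-coding. These were 0.994% of the 15894 protein-coding genes with eligible intronic sequence. Hosts were large, with a median of 138 kb of eligible intronic sequence, against 15.0 kb for all eligible genes. A protein-coding gene hosted 203 of the intervals, a lincRNA gene 25 and an antisense gene 8, and 11 intervals had more than 1 host. Each of the 11 was counted under 1 host only, protein-coding before other types and then the longest gene. Host and class counts depend on that choice. The interval counted under Aim2, for example, also lies in Cadm3. RE1 was found in 165 of the 203 (81.3%) and in 25 of the 38 others (65.8%). For 18 intervals the host intron is not in the preferred transcript of the gene, and these include both of Pou2f2, that of Tcf20 and the 3 of Fgfr2, which lie 1163 to 1878 kb from the start of a 2961-kb transcript.

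Host genes were grouped by symbol into 17 classes, 9 of them neuronal and 5 of kidney cell types. The neuronal classes include families such as ion channels and cadherins, and Cdh4 of the latter is also in a kidney class. A neuronal class therefore does not mean a gene confined to neurons. A neuronal class held 44 of the 158 hosts (27.8%, 95% CI 21 to 35.5%), against 4.14% of eligible genes. Because these genes are long, the share of sequence is the closer background, and they hold 15.3% of the eligible intronic bases. They held 56 of the 203 intervals (27.6%, 95% CI 21.6 to 34.3%), or 0.473 intervals per Mb of eligible sequence, against 0.224 per Mb in genes of no neuronal class. RE1 was found in 48 of the 56, near the 81.3% of all 203 intervals with a protein-coding host. In both lists were 20 of the 56, against 27.4% of all 241 intronic intervals. The counts of single classes below stand beside the same shares and were not tested against them.

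Genes for ion channels hosted 13 intervals, 6.40% against 2.28% of eligible bases, and 12 held RE1. Both Cacna1a intervals were in both lists, and so were that of Cacng2, which encodes stargazin, a regulator of AMPA receptors, that of Hcn4 and 1 of the 2 of Kcnip1, whose product binds Kv4 potassium channels. Cacna1h and Scn10a, a T-type calcium and a voltage-gated sodium channel gene, each had an exact element in replicate 2 alone. Kcnh1, an ether-a-go-go potassium channel gene, had 2 intervals of replicate 2 alone in its last intron, 140 and 181 bp wide.

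Genes for synaptic vesicles and exocytosis hosted 8 intervals in 8 genes, 3.94% against 1.16% of bases, and 7 held RE1. Syt2 and Nsf, which encodes the ATPase that recycles SNARE complexes, were in both lists, and Syt9, Syn2, Rims3, Rims4, Cadps and Rimbp2 in replicate 2 alone. Dense-core granule genes, a set of 16 with 0.159% of eligible bases, hosted 0, a count that so small a share leaves uninformative. Postsynaptic genes hosted 5 intervals (2.46% against 1.31% of bases), all with RE1. Of these 5 intervals, that in intron 1 of Dlgap4, a scaffold gene, was 388 bp wide in replicate 1 and 258 bp in replicate 2. The others, in Camk2b, Kalrn and Shank2 and the second of Dlgap4, were in replicate 2 alone.

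Neuronal RNA-binding genes had the largest share relative to their sequence among the 9 neuronal classes, 10 intervals or 4.93% against 0.642% of bases. They fell in 5 of the 25 genes of the class: Rbfox3, which encodes the NeuN antigen, Srrm4, a neuronal splicing activator that promotes an inactive isoform of REST, Nova2, Celf4 and Elavl2. RE1 was found in 9 and 6 were in both lists. The interval of Nova2 was 769 bp wide in replicate 1 and 164 bp in replicate 2, and its element had 0 mismatches.

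Genes for synaptic adhesion and axon guidance did not exceed their background, with 9 intervals or 4.43% (95% CI 2.05 to 8.25%) against 5.51% of bases. They comprised Slit1, Nrxn2 and Unc5a, in both lists, and Ephb1, Ntm, Dscaml1, Unc5c and both of Tenm2 in replicate 2 alone. Receptor genes were also near background, with 3 intervals (Grid1, Grik3 and Grik4) or 1.48% against 1.84%. Cadherins hosted 5 intervals, 3 in Cdh13 and 1 each in Cdh4 and Cdh23, 2.46% (95% CI 0.804 to 5.65%) against 1.47%, within counting error. Cytoskeletal genes hosted 3, in Dcx, Kif5a and Crmp1, of which only Dcx had RE1. Their share of 1.48% (95% CI 0.306 to 4.26%) was also within counting error of the 0.945% of bases.

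The 3 classes that were neither neuronal nor of kidney cells lay near their share of bases. Solute carriers hosted 5 intervals (2.46% against 1.89%), among them Slc8a2 and Slc8a3, which encode sodium-calcium exchangers and were in both lists, and Slc5a5, the iodide transporter gene. Signalling enzymes and phosphatases hosted 5 (2.46% against 2.39%), and 2 adjacent intervals in the last intron of Adcy5, an adenylyl cyclase gene, had only the right arm in their windows. Transcription factor families hosted 7 (3.45% against 2.48%), in Pou2f2, Pax5, Tbx15, Tcf20, Lhx4 and Zfp423.

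Kidney classes hosted 7 intervals in 4 genes, 3.45% (95% CI 1.40 to 6.98%) against 1.34% of eligible bases. No class was made for tubule genes, so the 4 genes are not a full set of kidney genes that host an interval. Podocyte genes hosted 3 (1.48% against 0.547%), the 2 of Kirrel3, which encodes a nephrin-like protein that is also made in neurons, and 1 of Plce1, a phospholipase C gene of the glomerulus. Nephron progenitor and early nephron genes hosted 4 (1.97% against 0.551%), of which 3 were those of Fgfr2 and 1 was in Cdh4, which is also counted among the cadherins. None of the Fgfr2 intervals is in the preferred transcript and all share a 2908817-bp intron of the long one, so their assignment to Fgfr2 is uncertain, and the class count without them is 1. The kidney total of 7 also includes them, and its background includes the 2229 kb of eligible sequence in Fgfr2. Neither was computed without Fgfr2, and the lower bound of 1.40% is already close to 1.34%. Ureteric, stromal and endothelial genes hosted 0, but they hold only 0.0586%, 0.0949% and 0.0922% of eligible bases, too little for a count of 0 to be informative. At Kirrel3 the interval in intron 2 was in both lists, 339 and 150 bp wide, and that in intron 3 was in replicate 2 alone and centred on an exact element. The lists name host genes only, as peaks carry no measure of expression.

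**Figure D4:**
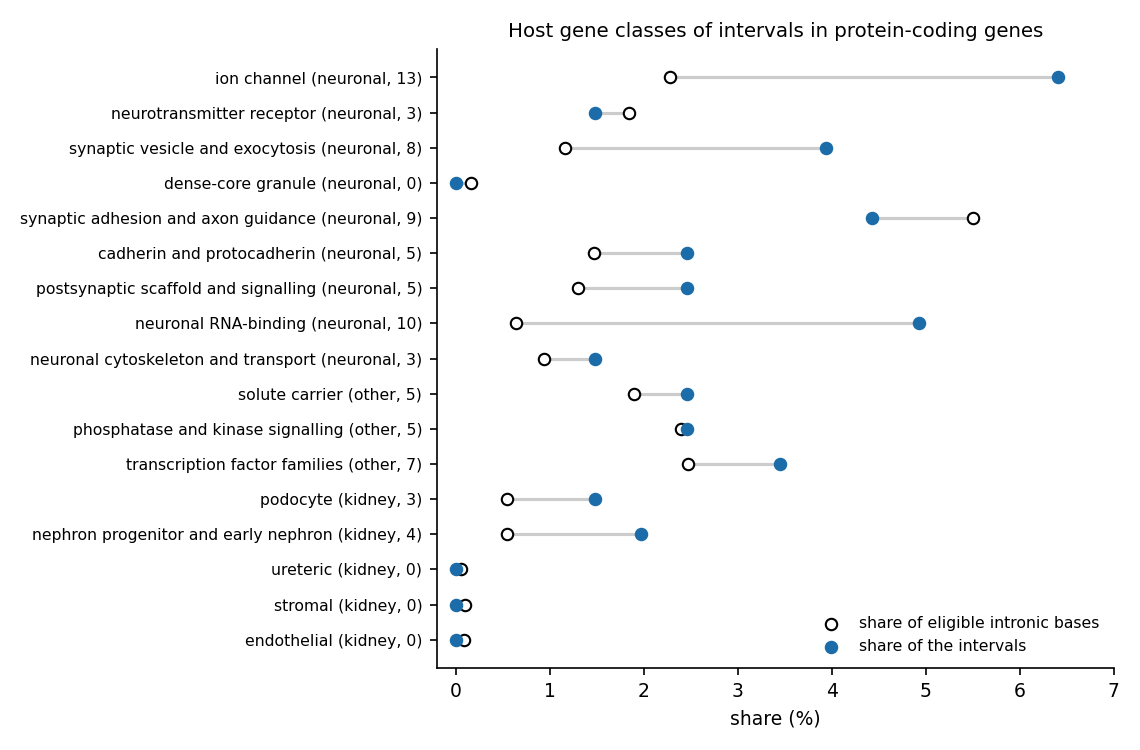
Share of the 203 intervals with a protein-coding host (blue) and of eligible intronic bases (open) in each of 17 gene classes (%), with the number of intervals in brackets. Ion channel, vesicle and RNA-binding genes lie to the right of their share of bases, and adhesion and receptor genes to the left.

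Some genes hosted several intervals. There were 35 hosts with 2 or more, which together had 84 intervals, and 11 with 3 or 4. Srrm4 had 3 intervals within 35.962 kb of intron 1, and all their elements had 0 mismatches. The central one was 330 bp wide in replicate 1 and 134 bp in replicate 2, and the others, of 124 and 117 bp, were in replicate 2 alone. Rbfox3 had 4 intervals in introns 2 to 4, of which 2 were in both lists, with widths of 753 and 357 bp and of 447 and 140 bp. The Rbfox3 elements, in 3 of its intervals, had at most 1 mismatch, and the last interval had the adjoining arms shown above.

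Atp2b2, which encodes a plasma membrane calcium pump, had 4 intervals, of which 2 held RE1, with 1 and 2 mismatches. The single Atp2b2 interval in both lists, 356 bp in replicate 1 and 275 bp in replicate 2, had the left arm alone. Camta1 had 4 intervals, all with RE1 and 3 of them in both lists. Crtac1, a cartilage acidic protein gene, had 3 with RE1, of which the outer pair had exact elements in replicate 2 alone. In Dpp6, a Kv4 channel auxiliary subunit gene, and Anks1b, a postsynaptic protein gene, all 3 intervals were in replicate 2 alone and 2 held RE1. Tmem267 differed from the rest, with 3 intervals within 5.473 kb, all in replicate 1 alone, 397, 707 and 443 bp wide and without RE1. The 3 intervals of Gm20388 share a 4384418-bp intron of a predicted gene, and 2 of them also lie in an intron of Jph3, a junctophilin gene.

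**Figure D5:**
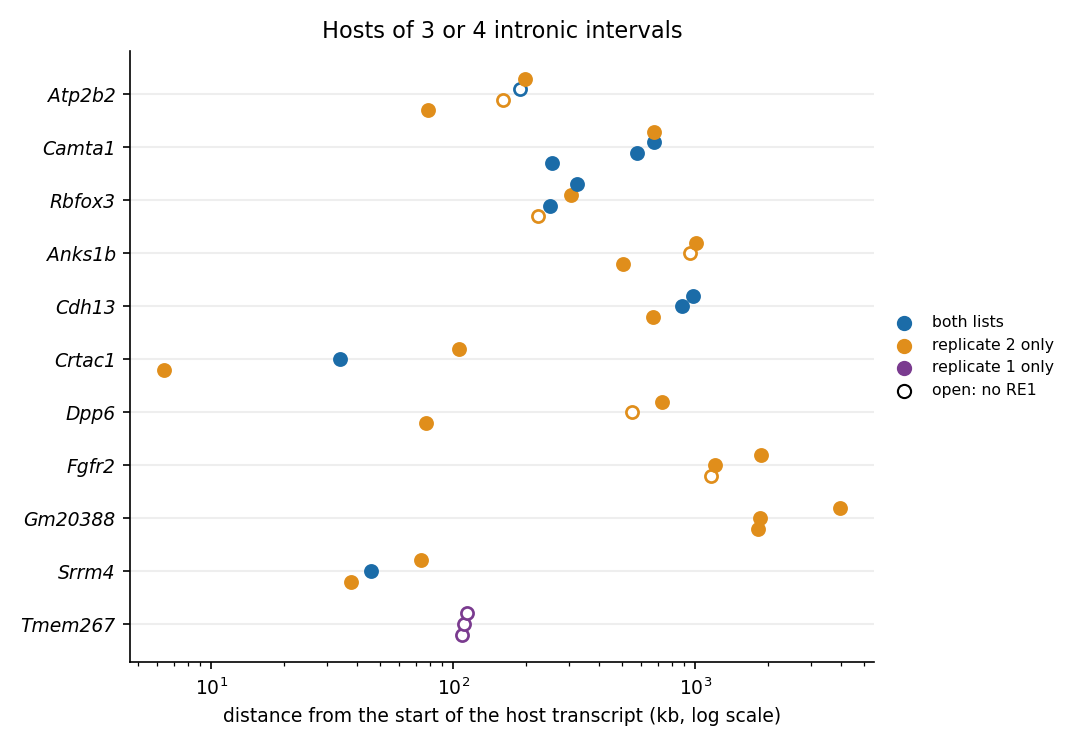
Distance of each interval from the start of its host transcript (kb, log scale) in the 11 genes with 3 or 4 intronic intervals, coloured by list and filled where RE1 was found. Points of a gene are staggered vertically for legibility; the 3 intervals of Srrm4 are filled, and the 3 of Tmem267 are open and in replicate 1 alone.

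To ask whether host genes were also occupied at their promoters, intervals within 1 kb of a TSS of the host itself were counted. Such an interval was present for 30 of 158 protein-coding hosts (19.0%, 95% CI 13.2 to 26.0%), against 26.8% of eligible genes, and for 9 of the 44 neuronal hosts. Cacna1a, Camta1, Cacng2, Srrm4 and Dlgap4 were among them, whereas Hcn4, Syt2, Rbfox3, Atp2b2 and Slc8a2 had none. In replicate 2 peaks alone the share was 11.5% of 157 hosts, and in replicate 1 peaks alone 18.2% of 55. Each list alone had fewer promoter intervals than the merged set, 3534 in replicate 2 and 4041 in replicate 1, so 26.8% is not the background of these 2 shares. The share of eligible genes was not computed for either list alone.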

How the data were processed

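Per the methods of the study, the authors aligned reads with Bowtie and called peaks with MACS against input or IgG at various P value cutoffs. Their later analyses used the peaks common to both calls. Per the labels, the submitters' processing notes name HISAT2 and build mm10. Which cutoff or control applies to each deposited list was not given in the sources used here. The deposited lists give the chromosome, start and end of each peak on mm10, with no score or count. Replicate 1 had 4277 peaks and replicate 2 had 4164 nuclear peaks, and 11 mitochondrial peaks of replicate 2 were left out. Groups were taken from the sample titles.

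Positions are printed 1-based. Sequences were read from the GRCm38 reference, and every peak was within its chromosomes. Hosts were taken from GENCODE M21, preferring principal, then basic, then longest transcripts, and "preferred transcript" means the first by that order. RE1 was searched on both strands. Shares have exact Clopper-Pearson 95% intervals, and 7 comparisons used two-sided Fisher's exact tests, adjusted by Benjamini-Hochberg, at a threshold of 0.05. Alternatives with 1 list alone were adjusted over fewer comparisons, as those by list could not be made. No test was run on host gene classes. The rule for the named genes took hosts of 2 or more intervals, hosts of replicate 1 intervals with RE1, up to 12 hosts of exact elements in both lists by peak width, up to 4 hosts a class, all hosts in kidney classes, and the 3 widest and 3 farthest intervals. Other hosts, among them those of intervals without RE1 and the rest of each class, were named after their values were seen. The members and lists were chosen with earlier results of these data known. Python 3.11.15, scipy 1.17.1, pysam 0.24.0 and samtools 1.23.1 were used, and the search and tests were tested on simulated data. Alternatives covered the replicates, TSS set, distance, window, mismatches, overlap, peak width, merging and host transcript.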

Additional observations from a re-analysis of the deposited data

How the results depend on the processing

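Of 67 alternative values for 15 results, 51 changed neither in sign nor in whether they passed, or moved by less than the counting error of the reported value. The intronic share of intervals ranged from 1.73% to 5.72% when either replicate was left out, and was 3.10% beyond 10 kb from a TSS and 1.74% with the wider part of each list, from its median width up. The RE1 share ranged from 63.5% to 80.7% on leaving out a replicate, and was 58.9% with at most 1 mismatch and 26.1% with 0. Its difference from the intergenic class ranged from -0.960 to 18.6 percentage points without a replicate and was -0.699 points beyond 10 kb. The difference between replicate 2 alone and both lists was -13.98 points over whole intervals and 8.15 points on merged midpoints, and that between replicate 2 alone and replicate 1 alone was 46.2 points with 1 mismatch (Fisher's exact test, adjusted p = 0.0767) and 12.1 points with 0 (adjusted p = 1). The host-strand share ranged from 50.0% to 58.5%, and the share of hosts with an own promoter interval from 11.5% to 18.2%, without a replicate. The causes were not tested. Hosts through the preferred transcript only, and RE1 counted together with spaced arms (81.7%), were alternatives chosen after seeing the data and moved nothing beyond its interval. No paired analysis was possible because only 1 group has replicates with peak lists. Neither depth nor signal over background can be read from the lists.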
